A study of Arabidopsis thaliana with 12 samples.

Results

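The Aurora kinase genes of Arabidopsis thaliana, AUR1 (AT4G32830), AUR2 (AT2G25880) and AUR3 (AT2G45490), were followed on 12 expression arrays of whole seedlings. The 3 genes were taken by name, each through its 1 probe set, out of 22746 probe sets tested. The probe sets followed from the names, but the genes were chosen with earlier results of these data known. The seedlings were 3 days old and fell into 4 groups of 3 arrays. Wild type (WT, Col-0) was kept without glucose or given 15 mM glucose for 2 h. Seedlings of an RNAi line against tor in which estradiol induces the silencing (tor, labelled Col-0 and tor mutant) were likewise kept without glucose or given it. All seedlings were grown in liquid medium. The sources used here do not say whether WT also received estradiol, which promoter drives the silencing or how many lines were used. The level of TOR itself, which no named probe set covers, was not analysed here.

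Aurora kinases are serine/threonine kinases that act in mitosis, where they phosphorylate histone H3 and proteins of the spindle and the centromere. Plants have an alpha type, AUR1 and AUR2, found on spindle microtubules and on the growing cell plate, and a beta type, AUR3, found at centromeres. Their transcripts accumulate in dividing cells around the G2 to M transition, so in a seedling they come mainly from the meristems. TOR is a protein kinase that couples nutrients and energy to growth and cell division. A lower value on these arrays can come from fewer dividing cells in the seedling or from less RNA in each of them, and these cannot be told apart.

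Values are log2 signals from RMA, a method that summarises the probes of a probe set, so 1 unit is a doubling. The lower quartile of all probe sets lay between 4.48 and 4.70 on the 12 arrays. The median was 6.53 to 6.68 on the WT arrays and 6.76 to 6.86 on the tor arrays. The upper quartile was 8.28 to 8.36 in WT and 8.49 to 8.52 in tor. The tor arrays thus lay higher in both without overlap, and fits with centred arrays are given at the end. None of the Aurora genes fell below the lower quartile on any array. Of the leaf markers, LHCB4.1 and LHCB4.2 (light-harvesting proteins, 2 of 4 listed) were abundant, the first at 13.51 to 13.87 on all arrays and the second at 12.15 to 13.03 in WT and 13.19 to 13.39 in tor. Of the root hair markers, 2 of 3 were measured: the expansin gene EXPA7 lay at 6.44 to 7.54 in WT and at 4.73 to 4.97 in tor, and EXPA18 at 4.65 to 6.08 in WT and at 5.18 to 5.49 in tor. No shoot or root meristem marker of the list used has a named probe set here (0 of 6). The spans of the Aurora genes overlap a neighbouring gene in the RefSeq gene table (PFK6 for AUR1, AT2G25890 for AUR2, GRF9 for AUR3), and probe positions were not used here. AT2G25890 has a probe set of its own, which lay at 4.47 to 5.08.

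The arrays numbered 1 stood apart from those numbered 2 and 3 for the Aurora genes, most of all in tor. In untreated tor, array 1 exceeded the mean of arrays 2 and 3 by 2.01 log2 units for AUR1, 2.01 for AUR2 and 1.14 for AUR3. With glucose, the gaps in tor were 1.86, 2.24 and 1.13. These values lay at or above the 97.6th percentile of the gaps of all probe sets, whose SD was 0.56 in untreated tor and 0.49 with glucose. In WT the gaps of AUR1 were also wide (1.23 without and 0.87 with glucose). That of AUR2 was 0.35 without glucose and 1.04 with it, and AUR3 stayed at 0.34 and 0.45. The labels give the numbers as biological replicates and do not say what arrays of 1 number shared. Same-numbered arrays did deviate together over all probe sets, and the numbers were treated as pairs in a second fit. Each result is given with and without that block and, where it matters, without the 4 arrays numbered 1. Those 4 arrays were picked out by these same values, so the fits without them are no separate check.

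**Figure D1:**
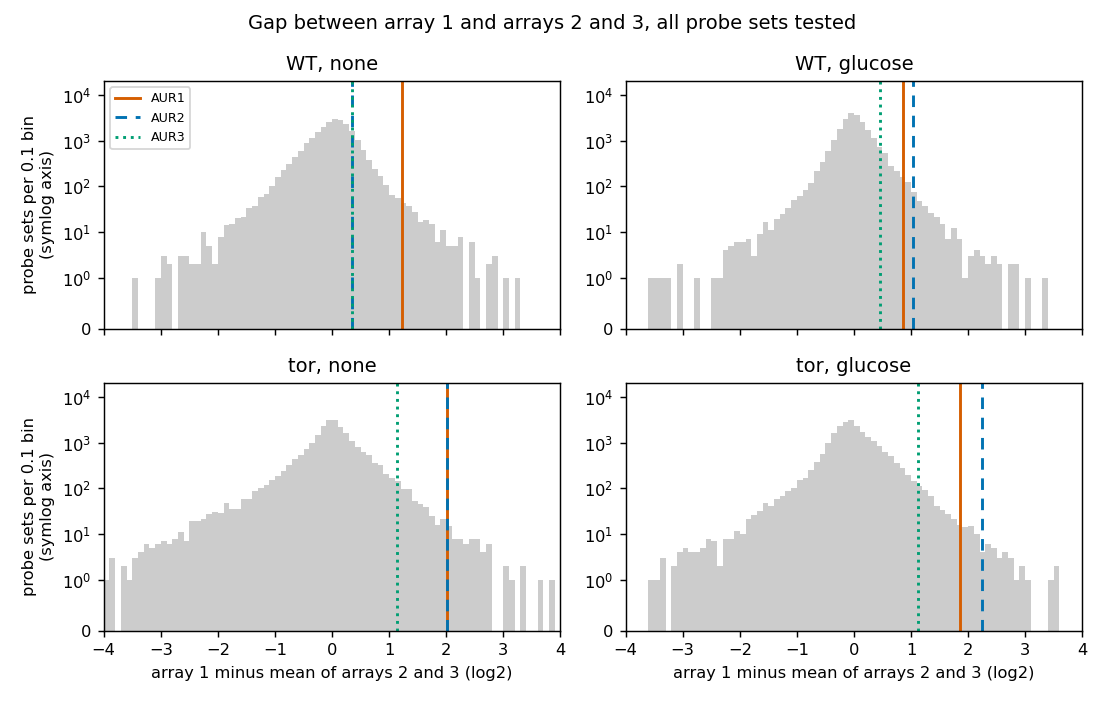
The gap between array 1 and the mean of arrays 2 and 3 (log2, x axis, shown from -4 to 4) is drawn as a histogram over all 22746 probe sets for each group, with the number of probe sets per bin on a symmetric log axis. Lines mark AUR1 (solid), AUR2 (dashed) and AUR3 (dotted), and in untreated tor they sit at 2.01, 2.01 and 1.14, far to the right of the bulk.

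In WT seedlings AUR1 read 8.12, 7.04 and 6.74 on the 3 arrays without glucose and 8.22, 7.53 and 7.17 on the 3 with it, in the order of the replicate numbers. Array 1 was the highest in each group and the groups overlapped, but each array with glucose exceeded the one of its number, by 0.09, 0.49 and 0.43. AUR2 went the other way, from 7.95, 7.75 and 7.45 to 7.81, 7.02 and 6.52, with differences of -0.14, -0.73 and -0.93. AUR3 read 6.70, 6.22 and 6.49 without glucose and 6.50, 6.14 and 5.95 with it, lower in each pair by amounts between 0.08 and 0.55. The alpha type genes thus had differences of opposite sign in all 3 pairs, and the smallest size for each was in pair 1.

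With group means alone, 0 of the 3 Aurora genes passed for glucose in WT at an adjusted p of 0.05 (limma, adjusted over all probe sets), against 24.0% of all probe sets. The changes were 0.34 ± 0.65 (SE, adjusted p = 0.799, limma) for AUR1, -0.60 ± 0.67 (0.613) for AUR2 and -0.28 ± 0.37 (0.691) for AUR3. The 95% interval for AUR1 ran from -1.10 to 1.77, so a change of more than 2-fold in either direction was not excluded by it. A block for the replicate number over all 12 arrays again gave 0 of 3, against 33.9%. When the block was set within each genotype, AUR1 passed as higher (0.34 ± 0.11, adjusted p = 0.0466) and AUR2 as lower (-0.60 ± 0.15, adjusted p = 0.0126), 2 of 3 genes against 39.1% of probe sets (21.8% higher and 17.4% lower), while AUR3 did not pass (adjusted p = 0.111). Neither call held when the same pairing was fitted to the WT arrays alone (adjusted p = 0.105 for AUR1 and 0.0505 for AUR2) or with the number as a random effect (0.645 and 0.417). Without the arrays numbered 1 the change of AUR2 was -0.83 ± 0.19 (adjusted p = 0.0117), 1 of 3 against 30.6% (14.3% lower). AUR1 was then not called, at 0.46 ± 0.18 (adjusted p = 0.0924). With group means alone and 1 array left out, AUR1 ran from 0.048 (without WT glucose array 1) to 0.75 (without untreated WT array 1), AUR2 from -0.95 (without WT glucose array 1) to -0.30 (without WT glucose array 3) and AUR3 from -0.43 (without WT glucose array 1) to -0.15 (without WT glucose array 3), with no call.

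In the authors' deposited table for WT, the RMA fold changes of AUR1, AUR2 and AUR3 are 0.3, -0.6 and -0.3 on the log2 scale, and the p-value of AUR2 is 0.0295 before any adjustment. The dChip values in the authors' deposited table, a second summary of the same arrays, are 0.4, -0.4 and -0.6. In their table for tor the values are -0.1, -0.3 and -0.2 by RMA and -0.2, 0.3 and -0.2 by dChip, so the sign of AUR2 in tor differs between the summaries.

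**Figure D2:**
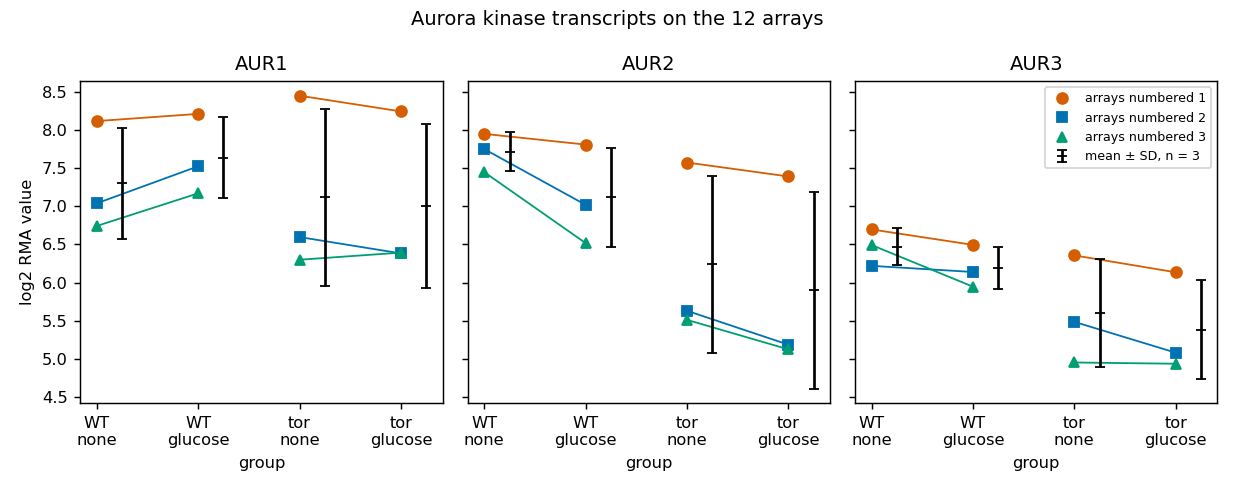
Each panel shows 1 Aurora gene, with the log2 RMA value of every array (y axis) in the 4 groups (x axis), lines joining same-numbered arrays of a genotype, and the mean ± SD of 3 arrays in black. In tor, the AUR2 values of arrays 2 and 3 lie between 5.12 and 5.63, while array 1 lies at 7.58 and 7.39, close to WT.

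In tor seedlings AUR1 read 8.46, 6.60 and 6.30 without glucose and 8.25, 6.38 and 6.39 with it. The pair differences were -0.21, -0.21 and 0.09, and the groups overlapped across their range. AUR2 read 7.58, 5.63 and 5.51 without and 7.39, 5.18 and 5.12 with glucose, lower in each of the 3 pairs, by 0.18, 0.45 and 0.39. AUR3 read 6.36, 5.48 and 4.95 without and 6.13, 5.08 and 4.93 with glucose, also lower in each pair, by 0.22, 0.41 and 0.02. These differences within pairs are smaller than the gaps of 1.13 to 2.24 between array 1 and the mean of arrays 2 and 3.

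For glucose in tor 0 of 3 Aurora genes passed, and 0% of all probe sets did (limma), with 313 probe sets at an unadjusted p under 0.05. The changes were -0.11 ± 0.65 for AUR1, -0.34 ± 0.67 for AUR2 and -0.21 ± 0.37 for AUR3 (adjusted p = 1 for each). With the number as a block, across all arrays or within genotype, 0 of 3 passed against 0% of probe sets. The narrower 95% intervals with the block across all arrays were -0.61 to 0.39 for AUR1, -1.11 to 0.43 for AUR2 and -0.68 to 0.25 for AUR3. Without the arrays numbered 1 the count was again 0 of 3, against 0.00879% of all probe sets. The sign of each of the 3 estimates turned on single arrays: without array 1 of untreated tor they were 0.56, 0.33 and 0.17, and without array 1 of tor with glucose they were -0.73, -1.09 and -0.59.

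The glucose response was then compared between the genotypes. The difference of the responses, tor minus WT, was negative in all 3 numbers for AUR1 (-0.30, -0.70 and -0.34), while that of AUR2 (-0.04, 0.29 and 0.54) and of AUR3 (-0.02, -0.32 and 0.53) changed sign between numbers. None of the 3 passed, against 5.36% of probe sets, with estimates of -0.45 ± 0.92 (adjusted p = 0.881) for AUR1, 0.26 ± 0.94 (0.939) for AUR2 and 0.06 ± 0.53 (0.980) for AUR3. The block gave 0 of 3 against 13.4%, and 0 of 3 against 20.0% when set within each genotype, where AUR1 came to -0.45 ± 0.16 (adjusted p = 0.0905). Without the arrays numbered 1 it was 0 of 3 against 12.9%. These data therefore show no difference in the response of an Aurora gene between WT and tor that passes the threshold. With group means alone, the intervals excluded a 2-fold difference for none of the 3 genes. They were -2.48 to 1.58 for AUR1, -1.82 to 2.35 for AUR2 and -1.11 to 1.23 for AUR3. With the block, a 2-fold difference was not excluded for AUR1 (-1.15 to 0.26) and AUR2 (-0.83 to 1.35). The interval of AUR3 with the block was -0.60 to 0.72.

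Between genotypes the levels stood further apart. Without glucose, AUR2 averaged 7.72 ± 0.25 (SD, n = 3) in WT and 6.24 ± 1.16 (n = 3) in tor, a mean difference of 2.79-fold. The pair differences, tor minus WT, were -0.38, -2.12 and -1.94. AUR3 averaged 6.47 ± 0.24 in WT and 5.60 ± 0.71 in tor, with pair differences of -0.34, -0.74 and -1.54. AUR1 averaged 7.30 ± 0.73 and 7.12 ± 1.17, and its pairs disagreed: 0.33 higher in tor on array 1, 0.44 lower on arrays 2 and 3. For AUR2 the pair numbered 1 differed by 1.30-fold and the mean of pairs 2 and 3 by 4.09-fold. For each of the 3 genes the groups overlapped, because array 1 of tor lay among the WT values or above them.

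With group means alone, 0 of 3 Aurora genes passed for tor against WT without glucose, against 28.2% of probe sets (8.66% lower in tor). AUR2 had a difference of -1.48 ± 0.67 (adjusted p = 0.123) and AUR3 one of -0.87 ± 0.37 (adjusted p = 0.106). Blocked on the replicate number, AUR2 (SE 0.34, adjusted p = 0.00768) and AUR3 (SE 0.21, adjusted p = 0.00885) were lower in tor, 2 of 3 genes, where 39.9% of all probe sets passed and 13.7% passed as lower. AUR1 did not pass (-0.18 ± 0.22, adjusted p = 0.551). That block takes the effect of the number as the same in both genotypes, while the gap of array 1 was wider in tor for each gene. Its SE therefore does not measure the spread of the pair differences, tor minus WT (SD 0.96 for AUR2 and 0.61 for AUR3, n = 3 pairs). Without the arrays numbered 1, AUR2 (-2.03 ± 0.19, adjusted p = 0.000266) and AUR3 (-1.14 ± 0.20, adjusted p = 0.00393) were called lower, 2 of 3 against 12.1% called lower and 33.7% called in all. AUR1 came to -0.44 ± 0.18 (adjusted p = 0.0924). That fit drops the pair whose difference was smallest in size for each gene, so its larger differences were fixed in advance. Without the arrays numbered 2, or without those numbered 3, no Aurora gene was called. The share of all probe sets called in those fits is not given here, so this is not read as particular to the Aurora genes. Leaving out array 1 of untreated tor alone was enough for both calls (AUR2 -2.15, adjusted p = 0.0233; AUR3 -1.25, adjusted p = 0.0192), and no other single array was. The root hair marker EXPA7 was lower in tor (-2.01 ± 0.26, adjusted p = 0.000394), in array 1 as in the others, while EXPA18 was not called (0.33 ± 0.25, adjusted p = 0.368). Without the arrays numbered 1 EXPA18 was higher in tor (0.71 ± 0.14, adjusted p = 0.00750), opposite to EXPA7. The leaf marker LHCB4.2 was higher in tor (0.70 ± 0.22, adjusted p = 0.0356, or 0.00407 with the block, but 0.153 without the arrays numbered 1), and LHCB4.1 was not called (-0.20 ± 0.09, adjusted p = 0.125). The part of tissue make-up in the Aurora differences was not tested.

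With glucose, the difference of AUR1 was larger than without it. AUR1 averaged 7.64 ± 0.53 in WT and 7.01 ± 1.07 in tor, with pair differences of 0.03, -1.14 and -0.78. AUR2 averaged 7.12 ± 0.65 and 5.90 ± 1.29, with pair differences of -0.42, -1.84 and -1.40. AUR3 averaged 6.19 ± 0.28 and 5.38 ± 0.66, with pair differences of -0.36, -1.06 and -1.01. Pair 1 again had the smallest difference for each gene.

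For tor against WT with glucose 0 of 3 passed with group means alone, against 41.4% of probe sets (16.0% lower): AUR1 at -0.63 ± 0.65 (adjusted p = 0.471), AUR2 at -1.22 ± 0.67 (0.170) and AUR3 at -0.81 ± 0.37 (0.107). With the block all 3 were lower in tor (adjusted p = 0.0384 for AUR1, 0.0145 for AUR2 and 0.00919 for AUR3), where 50.8% of probe sets passed and 20.4% passed as lower. As without glucose, these p-values do not rest on the spread of the pair differences between genotypes (SD 0.60 for AUR1, 0.73 for AUR2 and 0.39 for AUR3, n = 3 pairs). With the number as a random effect AUR3 alone passed (adjusted p = 0.0313), and AUR1 (0.262) and AUR2 (0.0585) did not. Without the arrays numbered 1 all 3 were called lower, at -0.96 ± 0.18, -1.62 ± 0.19 and -1.04 ± 0.20 (adjusted p = 0.00325, 0.000367 and 0.00382), against 18.4% called lower and 45.3% called in all. Pair 1, with the smallest difference for each gene, was dropped there, so larger differences were fixed in advance. No Aurora gene was called without the arrays numbered 2 or without those numbered 3. Here too the share of all probe sets called is not given, and the lack of calls is not read as particular to these genes. Leaving out array 1 of tor with glucose alone gave -1.97 for AUR2 (adjusted p = 0.0200) and -1.19 for AUR3 (adjusted p = 0.0201), while AUR1 was not called without any single array. EXPA7 was again lower in tor (-2.20 ± 0.26, adjusted p = 0.000154), and so was EXPA18 (-0.71 ± 0.25, adjusted p = 0.0458). LHCB4.2 was higher in tor (0.80 ± 0.22, adjusted p = 0.0143, or 0.00135 with the block, but 0.0549 without the arrays numbered 1), and LHCB4.1 was not called (-0.07 ± 0.09, adjusted p = 0.586). Whether the tor to WT difference of AUR1 depends on glucose is the comparison of responses above, which did not pass.

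**Figure D3:**
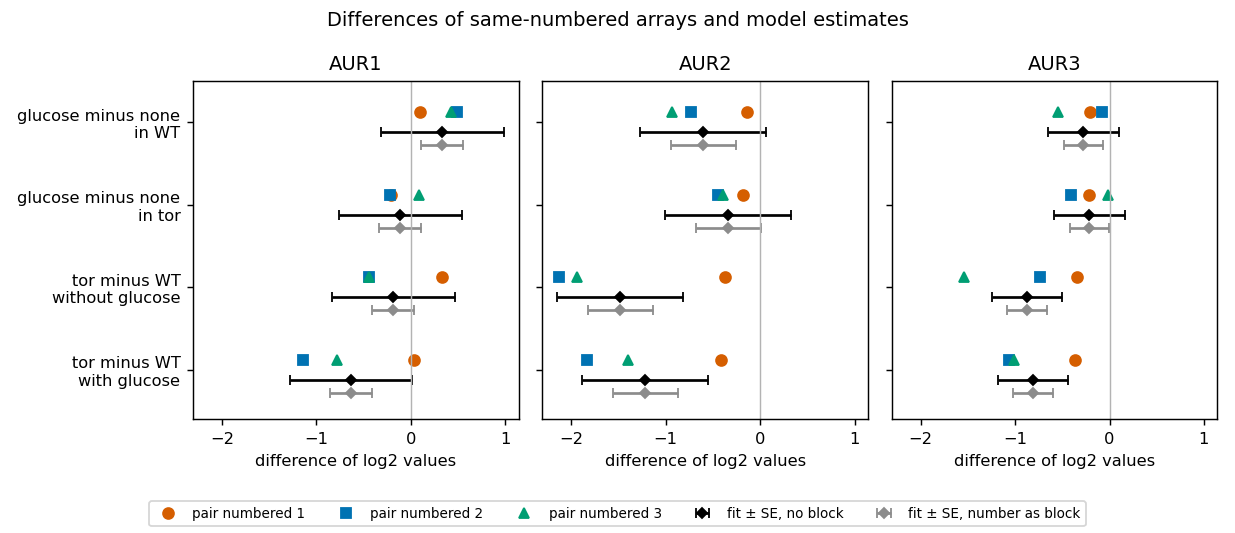
For each Aurora gene, coloured points give the difference of log2 values between same-numbered arrays in 4 comparisons (rows), and diamonds the model estimates ± SE with group means alone (black) and blocked on number (grey). For AUR2, tor minus WT lies at -0.38 and -0.42 in the pairs numbered 1 and between -2.12 and -1.40 in the others.

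Ordered by their mean level, the groups ran WT with glucose, WT without, tor without and tor with glucose for AUR1 (7.64, 7.30, 7.12 and 7.01). For AUR2 (7.72, 7.12, 6.24 and 5.90) and AUR3 (6.47, 6.19, 5.60 and 5.38) WT without glucose came first, then WT with glucose, tor without and tor with glucose. No neighbours in these orders differed beyond the spread of unpaired arrays: each gap (0.11 to 0.34 for AUR1, 0.34 to 0.88 for AUR2, 0.21 to 0.60 for AUR3) was smaller than the SD of at least 1 of its groups. That SD holds the differences between replicate numbers as well. Within pairs, WT with and without glucose kept 1 sign in 3 of 3 pairs for each gene, and AUR1 and AUR2 passed with the block within genotype, as given above.

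AUR2 and AUR3 moved closely together over the 12 arrays (Pearson's r = 0.968), AUR1 less so with AUR2 (0.803) and with AUR3 (0.781). The 12 points share 4 groups and 3 replicate numbers and are no independent samples. Over the 8 arrays numbered 2 and 3 the values were 0.953, 0.731 and 0.767. A difference between 2 probe sets on the same array sets aside what moves both alike, and only its change between groups can be read. AUR1 minus AUR2 was 0.17, -0.71 and -0.71 in WT without glucose and 0.40, 0.51 and 0.65 in WT with it. In tor it was 0.88, 0.97 and 0.79 without and 0.85, 1.20 and 1.27 with glucose. The WT groups did not overlap each other, and each tor group lay above the WT group of the same treatment, array 1 included.

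The mean of AUR1 minus AUR2 was higher with glucose in WT by 0.94 and higher in tor than in WT by 1.30 without glucose and 0.59 with it, each upward in 3 of 3 pairs. An exact two-sided permutation test gave p = 0.1 for each, the smallest that 3 against 3 arrays allow, and an adjusted p of 0.4 over the 12 comparisons of 3 gene pairs. In tor glucose moved it by 0.23 (exact p = 0.3, adjusted p = 0.4). The other 2 gene pairs had overlapping groups in all 8 comparisons, with exact p from 0.2 to 0.8. This measure was chosen after the data were seen, and none of the 12 comparisons could pass.

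**Figure D4:**
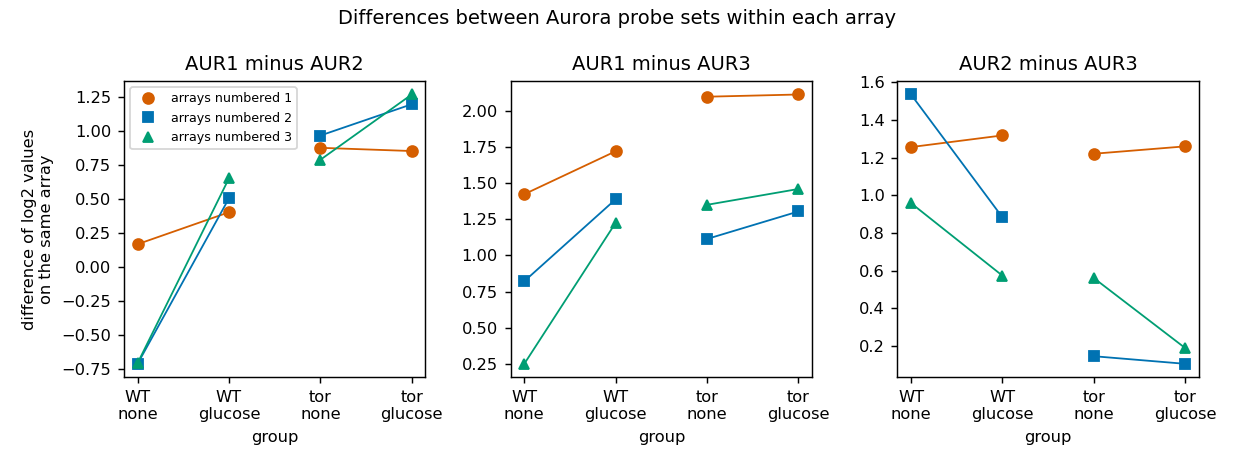
The difference of log2 values between 2 Aurora probe sets on the same array (y axis) is shown for the 4 groups, with lines joining same-numbered arrays of a genotype. AUR1 minus AUR2 (left) runs from -0.71 to 0.17 in untreated WT and from 0.79 to 0.97 in untreated tor. In that tor group array 1 no longer stands apart. It still does in untreated WT (0.17 against -0.71 and -0.71) and in tor with glucose (0.85 against 1.20 and 1.27). The same holds for AUR1 minus AUR3 in untreated tor (2.10 against 1.11 and 1.35).

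Of the 61 other cell cycle genes listed, 9 have a named probe set here: 3 of 6 partners and substrates of Aurora kinases, 4 of 22 mitotic genes, 2 of 25 S-phase genes and 0 of 8 genes of G2 to M control. The counts below concern these 9 and not the lists. With glucose in WT 4 of the 9 rose and 5 did not pass, with a median log2 change of 0.57 against -0.01 over all probe sets, of which 13.5% passed as higher. With the block 5 rose, against 18.9%, the fifth being AT4G39630 (0.57 ± 0.16, adjusted p = 0.0176). Within this group ICU2, which encodes the catalytic part of DNA polymerase alpha, rose from 5.34 to 7.77 (2.42 ± 0.30, adjusted p = 0.000336). PRL, which encodes MCM7 of the helicase that opens DNA at forks, rose from 6.83 to 9.24 (2.41 ± 0.47, adjusted p = 0.00411). HTR12, the centromeric histone CENH3, rose from 5.26 to 6.20 (0.93 ± 0.25, adjusted p = 0.0186), and BUB3.1, a spindle checkpoint protein, from 7.13 to 7.89 (0.76 ± 0.24, adjusted p = 0.0392). The calls of ICU2 and PRL held without each single array. That of HTR12 was lost without untreated WT array 2 or 3 or WT glucose array 1 or 2 (estimates 0.77 to 0.94, adjusted p up to 0.0766). BUB3.1 was not called without the same 4 arrays, or without untreated tor array 2 or tor glucose array 2 or 3 (0.57 to 0.80, adjusted p up to 0.137).

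Among the partners, WYR, the plant inner centromere protein that binds Aurora kinases, lay below the lower quartile on 12 of 12 arrays (3.44 to 4.21). In WT it read 3.96, 3.79 and 3.82 without and 4.21, 4.04 and 4.11 with glucose, higher in 3 of 3 pairs with no overlap (0.26 ± 0.19, adjusted p = 0.381, or 0.140 with the block). With the block within genotype it passed (SE 0.09, adjusted p = 0.0442), and 6 of the 9 genes did, against 21.8% of probe sets called higher. HASPIN, a kinase that marks centromeric histone H3, read 4.89, 5.13 and 5.26 without and 5.80, 5.63 and 5.13 with glucose in WT (0.42 ± 0.21, adjusted p = 0.194). AT4G39630, which carries no name in the tables used here, read 5.52, 4.79 and 4.90 without and 6.00, 5.72 and 5.20 with glucose (0.57 ± 0.31, adjusted p = 0.229). BUBR1, a spindle checkpoint protein, had 0.23 ± 0.24 (adjusted p = 0.583) and AT2G28620 0.09 ± 0.19 (adjusted p = 0.833). The 9 estimates were all positive, whereas AUR2 and AUR3 had negative ones.

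In tor 0 of the 9 passed with glucose, with and without the block, against 0% of all probe sets in both fits. The median was 0.09 against 0.01 over all probe sets. The response differed between genotypes for ICU2 (-2.38 ± 0.42, adjusted p = 0.0126), 1 of 9 against 3.44% of probe sets called lower. With the block it also differed for PRL (adjusted p = 0.0164), HTR12 (0.0198) and BUB3.1 (0.0148), 4 of 9 against 8.04% called lower. Without array 1 of tor with glucose alone PRL passed too (-2.73, adjusted p = 0.0251). That array was the highest of its group for PRL (7.47 against 6.06 and 5.75), so a more negative estimate was fixed in advance.

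Without glucose 0 of the 9 passed between tor and WT with group means alone, against 28.2% of probe sets (8.66% lower). With the block BUB3.1 (0.50 ± 0.09, adjusted p = 0.00232) and HTR12 (0.57 ± 0.13, adjusted p = 0.00656) were higher in tor, while BUBR1 (-0.55 ± 0.13, adjusted p = 0.00801) and ICU2 (-0.78 ± 0.28, adjusted p = 0.0471) were lower. The 2 spindle checkpoint genes thus lay on opposite sides, and 26.2% of all probe sets passed as higher and 13.7% as lower in that fit. Without array 1 of untreated tor, BUBR1 (-0.81, adjusted p = 0.0144) and ICU2 (-1.02, adjusted p = 0.0283) were called without the block too. Array 1 was the highest of untreated tor for both genes, so these larger differences were fixed in advance. ICU2 was also called without array 1 of tor with glucose (-0.78, adjusted p = 0.0487). BUBR1 read 5.30, 4.90 and 4.94 in WT and 5.02, 4.23 and 4.24 in tor, lower in each pair as AUR2 and AUR3 were. BUB3.1 read 7.44, 7.01 and 6.94 in WT and 8.04, 7.51 and 7.33 in tor, higher in each pair. HTR12 read 5.66, 5.20 and 4.93 in WT and 6.15, 5.54 and 5.82 in tor, also higher in each pair.

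With glucose 4 of the 9 were lower in tor, against 16.0% of probe sets: ICU2 (-3.17 ± 0.30, adjusted p = 4.34e-05), PRL (-2.82 ± 0.47, adjusted p = 0.00105), HASPIN (-0.76 ± 0.21, adjusted p = 0.0158) and BUBR1 (-0.71 ± 0.24, adjusted p = 0.0344). With the block 7 of 9 were lower, against 20.4% of probe sets called lower and 50.8% in all, among them WYR (adjusted p = 0.0337), AT4G39630 (0.00652) and AT2G28620 (0.0135). The calls of HASPIN (-0.62 to -0.70, adjusted p up to 0.0615) and BUBR1 (-0.55 to -0.72, adjusted p up to 0.129) were lost without any 1 of array 1 or 2 of WT or array 2 or 3 of tor, all with glucose. WYR was called without array 1 of tor with glucose (-0.57, adjusted p = 0.0183). Its value there was the highest of the group, so a more negative estimate was fixed in advance. BUB3.1 (-0.13 ± 0.24) and HTR12 (-0.24 ± 0.25) passed in neither fit. All 9 estimates were negative, as were those of the 3 Aurora genes, and the median was -0.65 against 0.08 over all probe sets. AT2G28620 lay below the lower quartile on 9 of 12 arrays, and ICU2 and BUBR1 on 4, so these differences may be understated.

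**Figure D5:**
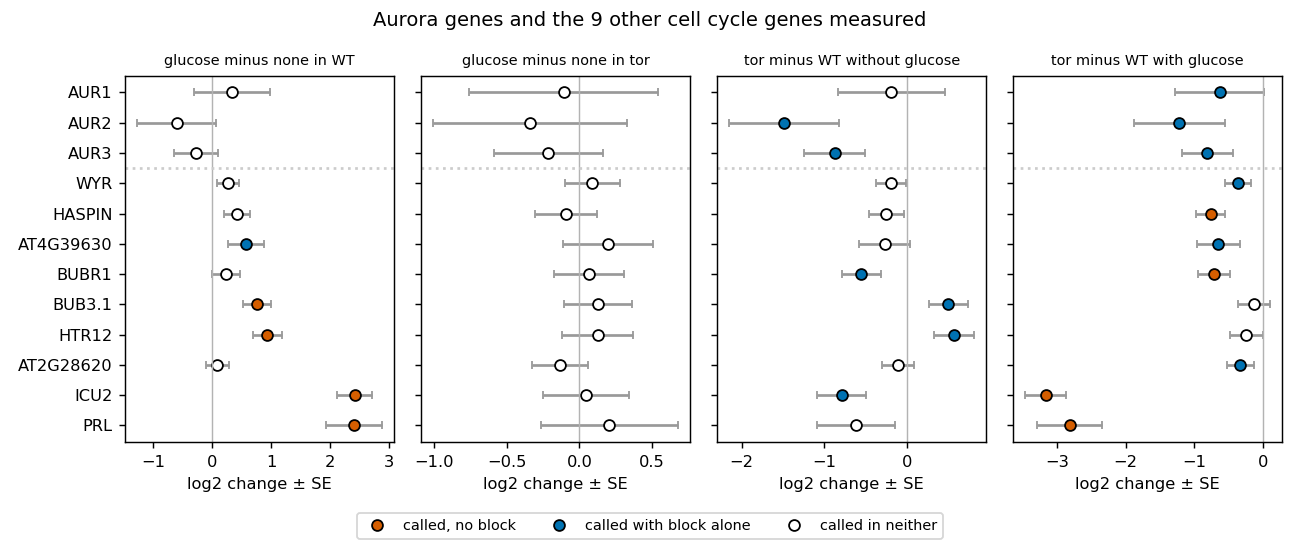
Log2 changes ± SE with group means alone are shown for the 3 Aurora genes (above the dotted line) and the 9 other cell cycle genes with a named probe set, in 4 comparisons with their own axis scales. Filled orange points passed without the block, blue ones with the block alone and white ones in neither. For glucose in WT the orange points are BUB3.1, HTR12, ICU2 and PRL. For glucose in tor all points are white, and 0% of all probe sets passed in either fit.

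Over the 12 arrays the listed genes followed the Aurora genes to different degrees. The values of r with AUR1, AUR2 and AUR3 were 0.781, 0.845 and 0.859 for BUBR1, 0.892, 0.808 and 0.837 for AT2G28620, and 0.864, 0.780 and 0.793 for the partner WYR. Over the 8 arrays numbered 2 and 3 these lay between 0.686 and 0.919. For BUB3.1 they were 0.639, 0.121 and 0.115, and for HTR12 0.594, 0.092 and 0.047. Over the 8 arrays they became 0.15, -0.557 and -0.447 for BUB3.1 and 0.240, -0.431 and -0.409 for HTR12, so the sign with AUR2 and AUR3 turned. The S-phase gene PRL had 0.610, 0.533 and 0.577, and 0.907, 0.482 and 0.555 over the 8 arrays. Among the 9346 probe sets with 1 gene and a highest group mean of at least 5, the 5 most like each Aurora gene reached r from 0.964 to 0.985, and 0.834 to 0.995 without the arrays numbered 1. For AUR1 they were AT5G16250 (0.982), AT3G51280 (0.974), AT5G66230 (0.972), AT2G24440 (0.968) and AT4G39970 (0.964). For AUR2 they were AT1G33290 (0.985), AT2G28605 (0.978), SBPASE, a Calvin cycle enzyme (0.976), AT5G47190 (0.974) and AT1G54500 (0.973). For AUR3 they were AT2G40760 (0.984), AT3G15520 (0.983), AT1G33290 (0.982), AT1G50450 (0.980) and AT2G24020 (0.979). AT1G33290 was near AUR2 and AUR3, and none was shared with AUR1. No listed mitotic gene was among these 14 genes. Few could have been, as 4 of the 22 listed have a named probe set. Of these, AT2G28620 (highest group mean 4.60) fell short of the minimum of 5, as did the partner WYR (4.12). The 14 genes all share the arrays, the groups and the replicate numbers.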

How the data were processed

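Total RNA of whole seedlings was labelled with biotin and hybridised by the authors, 1 array per sample, 12 arrays in all. RMA is the method named in the submitters' processing notes, and the deposited values behave as log2 signals, 1 per probe set. No source used here says if all arrays were normalized at once. The authors also deposited 2 tables of glucose against none with log2 fold changes and a p-value from RMA and from dChip, per the file headers, whose test is not stated there.

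Groups and replicate numbers came from the labels. Of 22810 probe sets, 64 controls were left out. A linear model with a mean per group was fitted to all 12 arrays (limma 3.58.1, R 4.3.3, lmFit and eBayes), with two-sided p-values adjusted by Benjamini-Hochberg over 22746 probe sets, and a call at an adjusted p under 0.05. SE and 95% intervals are those of the model. Arrays have no read depth, and their number, 3 a group, limits the precision. The labels call the arrays biological replicates. The model's p-values rest on their spread, which eBayes draws towards the spread common to all probe sets. The 18 pairs of same-numbered arrays of different groups had deviations from the group means that correlated at 0.199 to 0.863, against -0.702 to 0.197 for 36 pairs of other numbers, so the numbers were taken to pair the samples. The fits with the number as a block were alternatives. The fits were run on simulated data with a replicate effect shared by all groups, as a check of the estimates and not of the calls. Replicate effects that differ between genotypes were not simulated.

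The 3 genes, the lists of other cell cycle genes and the tests were chosen with earlier results of these data known. Genes were named by rule: the Aurora genes and the measured Aurora partners throughout, up to 4 called members of each other list with the largest change (or the one with the smallest p), ICU2 and PRL, and the 5 probe sets most like each Aurora gene. The other measured members are also given, which goes beyond the rule. Gene names came from the platform annotation and RefSeq's gene table (TAIR10.1), and 13513 probe sets have 1 gene. TPX2 and the cyclins, among others, are not analysed here.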

Additional observations from a re-analysis of the deposited data

Results flagged for a closer look

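The glucose response of ICU2 differed between the genotypes by -2.38 log2 units (tor minus WT, limma, adjusted p = 0.0126). ICU2 is one of the 9 cell cycle genes set beside the Aurora genes. The call held in each fit that left out 1 array, with adjusted p from 0.00711 to 0.0399. It was lost without the 4 arrays numbered 2 (-2.28, adjusted p = 0.385) or the 4 numbered 3 (-2.10, adjusted p = 0.271), and 4 of its 12 values lay below the lower quartile of their array. No Aurora gene was past the threshold in that comparison. Single arrays within a group of 3 are too few to test for outliers, so the arrays numbered 1 are described with the results and were not tested.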

How the results depend on the processing

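Estimates are log2 differences from limma and arrays are left out 1 or 4 at a time. Pairing by replicate number changed calls as follows. With the replicate block within genotype, glucose in WT gave 0.34 for AUR1 and -0.60 for AUR2, both past the threshold, but neither was past it in the WT arrays alone (adjusted p = 0.105 and 0.0505) or with the random effect (0.645 and 0.417). With the replicate block, tor minus WT without glucose gave -1.48 for AUR2 and -0.87 for AUR3, and with glucose -0.63 for AUR1, -1.22 for AUR2 and -0.81 for AUR3, all past it. That block takes the effect of the number as the same in both genotypes, and its SE does not measure the spread of the pair differences between them. With the number as a random effect, AUR2 (-1.48, adjusted p = 0.0336) and AUR3 (-0.87, adjusted p = 0.0292) passed without glucose and AUR3 (-0.81, adjusted p = 0.0313) with it. The block changed no other Aurora call. Centring arrays on their medians brought AUR3 past the threshold without (-1.11) and with glucose (-0.99), and quantile normalization did so without it (-1.09). The dChip fold changes in the authors' deposited table were -0.60 for AUR3 in WT and 0.30 for AUR2 in tor, the latter opposite in sign to the deposited RMA value (-0.3). Median centring put AT2G28620 in WT at -0.0012.

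The count of the 9 other cell cycle genes called, 1 for the difference of responses, became 4 with either block and 2 with the random effect. That for tor against WT without glucose, 0, became 4 with the block or the random effect, 2 with centring and 1 with quantile normalization. That with glucose, 4, became 7 with the block or with centring. The share of all probe sets called rose with the block as well. It went from 5.36% to 13.4% for the responses, and to 20.0% with the block within genotype. For tor against WT it went from 28.2% to 39.9% without glucose and from 41.4% to 50.8% with it. With arrays left out the counts ranged from 1 to 4 for glucose in WT, 0 to 3 for the responses, 0 to 5 for tor against WT without glucose and 1 to 6 with it. The highest counts came without the 4 arrays numbered 1, alone or tied, and the lowest without the 4 numbered 2, in 3 comparisons tied with others. Without the arrays numbered 1, the shares of all probe sets called were 30.6%, 12.9%, 33.7% and 45.3% in the same order. Shares for the other fits are not given here, so the changes in count are not read as particular to the 9 genes.

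With arrays left out, AUR2 ranged from -0.95 to -0.30 for glucose in WT, and was past the threshold only without the 4 arrays numbered 1. AUR1 ranged from 0.048 to 0.75 and AUR3 from -0.43 to -0.14, never past it. For tor against WT without glucose AUR1 ranged from -0.85 to 0.23, AUR2 from -2.15 to -1.12 and AUR3 from -1.25 to -0.54. With glucose they ranged from -1.25 to -0.32, -1.97 to -0.83 and -1.19 to -0.59. For glucose in tor they ranged from -0.73 to 0.56, -1.09 to 0.33 and -0.59 to 0.17, and for the responses from -1.07 to 0.22, -0.48 to 0.93 and -0.31 to 0.44. In these 2 comparisons the extremes came without array 1 of tor. Signs also turned for glucose in tor in HASPIN (-0.25 to 0.060), AT4G39630 (-0.058 to 0.51), WYR (-0.12 to 0.26), HTR12 (-0.10 to 0.28), AT2G28620 (-0.26 to 0.0082), BUBR1 (-0.093 to 0.33), BUB3.1 (-0.026 to 0.33), PRL (-0.31 to 0.67) and ICU2 (-0.21 to 0.28). Elsewhere they turned for AT2G28620 in WT (-0.049 to 0.24) and between genotypes without glucose (-0.25 to 0.041), for BUBR1 in the responses (-0.35 to 0.10) and for BUB3.1 between genotypes with glucose (-0.28 to 0.063). None of these passed the threshold. The causes of these shifts were not tested. Signals near background limit WYR and AT2G28620 most.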
